A study of Mus musculus with 6 samples.

Results

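The genes described here build the coat of the mouse egg or store proteins in the egg for the first days of the embryo, and they were followed in mouse embryonic stem cells with and without knockdown of Trim71, which binds RNA and also acts as a ubiquitin ligase in the early embryo. The 10 genes were Zp1, Zp2 and Zp3 of the zona pellucida, Khdc3, Ooep, Nlrp5, Tle6 and Padi6 of the maternal protein store, and the oocyte regulators Figla and Gdf9. Each had 1 probe set that carries its symbol alone, so all 10 were measured among 19937 genes with such a probe set. The group was chosen by measured values of these arrays, because Zp3 was lower and Khdc3 and Ooep were higher after the knockdown. Differences between control and knockdown arrays are therefore given for these 10 genes as a description. Where a gene is said to be called or not, or an interval is given, this describes its values in the fit over all genes, and it is no independent test of the gene.

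RNA of 3 control and 3 knockdown samples was hybridised to 1 single-colour array each. For the knockdown, a pool of 3 siRNAs against Trim71 was transfected and the cells were harvested 72 h later, and the protocol text names a non-targeting siRNA as its control. The labels call the control cells wild type and parental, so they do not settle whether those cells were transfected. The strain and sex of the cell line, and whether the replicates were separate cultures, are not stated in the sources used here. Medians of the arrays lay between 6.26 and 6.31 log2 units. Knockdown array 3 stood apart, with an upper quartile of 8.42 against 8.32 to 8.35 and the largest deviation from its group mean, 0.11 against 0.07 to 0.09. Trim71 itself fell by 1.52 log2 units, with SDs of 0.018 on the control and 0.025 on the knockdown arrays (n = 3 each).

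The zona pellucida is a shell of secreted glycoproteins that growing oocytes lay down. It binds sperm and protects the embryo until hatching, and its subunits share a polymerisation module called the zona pellucida domain. Figla, a basic helix-loop-helix protein that binds E-boxes with an E protein partner, is needed for the zona genes to be switched on in oocytes. Khdc3, Ooep, Nlrp5 and Tle6 encode proteins of the subcortical maternal complex, a store under the egg membrane without which embryos arrest at early cleavage, and Padi6 is needed for the cytoplasmic lattices that go with it. Embryonic stem cells are derived from the blastocyst and form no zona, but Khdc3 and Ooep are known to be expressed in them.

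The promoters of Zp3, Khdc3 and Ooep, the genes with the largest differences, are shown because E-boxes, the letters CANNTG, are what Figla and other helix-loop-helix proteins bind. Each run is the 250 bases before the RefSeq start of the GRCm38.p6 build, on the strand of the gene, and capitals mark CANNTG. The Zp3 stretch is chr5:135979855-135980104 on the plus strand, that of Khdc3 is chr9:73102148-73102397 on the plus strand, and that of Ooep is chr9:78378589-78378838 on the minus strand.
Zp3: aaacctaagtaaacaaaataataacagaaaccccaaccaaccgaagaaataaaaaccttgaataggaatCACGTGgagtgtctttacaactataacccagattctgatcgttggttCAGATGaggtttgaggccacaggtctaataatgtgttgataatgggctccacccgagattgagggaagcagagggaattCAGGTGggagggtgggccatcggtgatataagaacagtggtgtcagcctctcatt
Khdc3: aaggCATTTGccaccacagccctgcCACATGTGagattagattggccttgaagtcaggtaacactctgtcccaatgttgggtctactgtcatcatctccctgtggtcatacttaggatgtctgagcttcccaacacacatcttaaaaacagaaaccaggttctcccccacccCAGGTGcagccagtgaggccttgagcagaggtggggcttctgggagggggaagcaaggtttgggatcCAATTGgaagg
Ooep: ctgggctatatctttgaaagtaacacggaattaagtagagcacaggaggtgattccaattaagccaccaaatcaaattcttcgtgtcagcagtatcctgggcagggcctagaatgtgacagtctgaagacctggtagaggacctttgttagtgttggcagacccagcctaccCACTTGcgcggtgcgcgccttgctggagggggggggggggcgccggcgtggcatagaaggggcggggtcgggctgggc

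The Zp3 promoter held 3 CANNTG matches, which began 181, 134 and 55 bases before the start. The farthest of them reads CACGTG, a form that was present in 6.02% of all 32851 RefSeq windows of 250 bases. Khdc3 had 5 matches, of which 2 overlap in the run CACATGTG, and Ooep had 1, CACTTG, 78 bases before the start. CANNTG reads alike on both strands and was present in 66.2% of all windows, with a median of 1 match, and 3.84% of windows held 4 or more. Windows were found for 7 of the 10 genes, and 9 of their 9 windows held CANNTG. Tle6 carried CACGTG at 183 and 119 bases in 1 of its 2 windows, and its other window held 4 CANNTG matches. TCCCGC, searched on both strands, was found in 1 window of Nlrp5 and in 16.9% of all windows. TAATTG, also searched on both strands, was found in Ooep and in 7.17% of all windows, and TAATTA in 1 Nlrp5 window and in 4.84% of all. The promoters also differed in CpG dinucleotides, with 5 in Zp3, 0 in Khdc3 and 11 in Ooep, where the median window had 6. These matches describe the letters of the windows, and no binding was measured.

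After the knockdown the 10 genes went in different directions. Among the zona genes Zp3 fell to 49.1% of the control level, 2 genes of the subcortical maternal complex rose, Khdc3 1.85-fold and Ooep 1.26-fold, and the other 7 differed by no more than 1.14-fold. Rose and fell refer here to an adjusted p under 0.05 in limma over all genes, the fit from which the genes were chosen, and 5.53% of all genes passed it (3.39% higher and 2.15% lower). The median difference of the 10 genes was 0.11 log2 units, and that of all genes was 0.00480. Differences were positive for 6 genes and negative for 4. The control and knockdown values did not overlap for 4 of the 10, Zp3, Khdc3, Ooep and Gdf9, which was so for 25.5% of all genes.

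**Figure D1:**
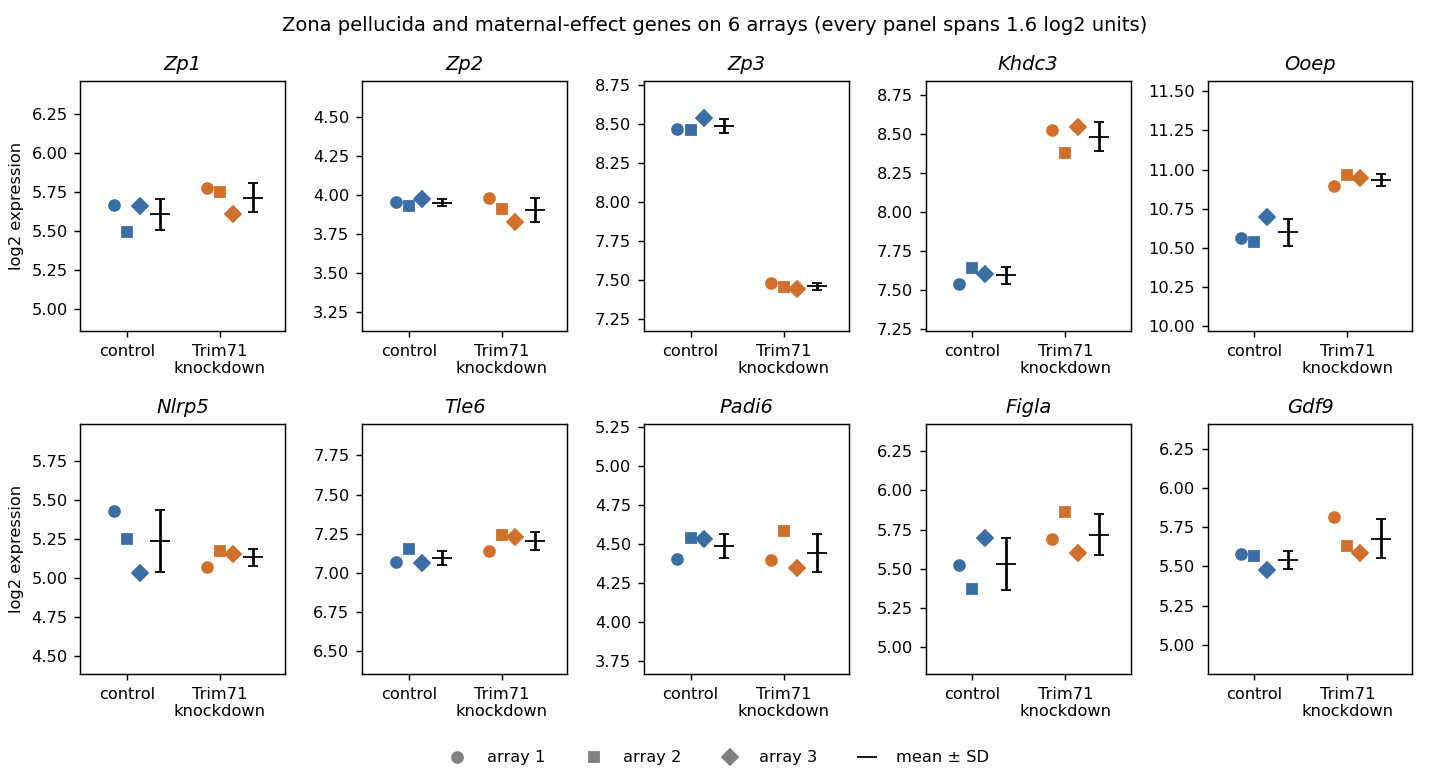
Log2 expression of each of the 10 genes on the 3 control arrays (blue) and 3 knockdown arrays (orange), with the mean and SD of each group beside them. Every panel spans the same number of log2 units, so heights can be compared as differences but levels cannot be compared between genes. Zp3 is lower and Khdc3 and Ooep are higher on all 3 knockdown arrays, while most other genes overlap.

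Zp3 encodes a filament subunit of the egg coat that also takes part in sperm binding. Its control arrays read 8.46, 8.46 and 8.54 log2 units, and its knockdown arrays read 7.48, 7.45 and 7.44. All 3 knockdown values lay close together and almost a full log2 unit below the lowest control value. The difference was −1.03 ± 0.048 (SE), a 2.04-fold lower level. The pooled SD within groups was 0.034, smaller than in all but 9.04% of genes, and the difference stayed between −1.04 and −1.001 with any 1 array left out.

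The other zona genes were not called. Zp1, which encodes the protein that cross-links zona filaments, read 5.66, 5.49 and 5.66 on the control arrays and 5.78, 5.75 and 5.61 on the knockdown arrays. These values overlap, and the difference was 0.11 ± 0.071 (SE), with a 95% interval from −0.060 to 0.27. Zp2, which encodes the zona protein that sperm bind and that is cleaved after fertilisation, read 3.96, 3.93 and 3.97 against 3.98, 3.91 and 3.83. Its groups overlap too, at a difference of −0.045 ± 0.055 (SE) and a 95% interval from −0.17 to 0.082.

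Both probe sets were dim, which limits what they can show. The 1027 olfactory receptor genes, most of which are silent outside the nose, had mean levels with a median of 3.69 and a 95th percentile of 5.38. Zp2, at a mean of 3.93, Padi6 at 4.47 and Nlrp5 at 5.19 lay under that percentile, and Zp1, Figla and Gdf9 lay a little above it, between 5.61 and 5.66. The deposited values have no detection call, so presence of these transcripts was not tested, and a change of a dim transcript is understated on the log2 scale.

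Khdc3, also called Filia, encodes a KH-domain protein that keeps chromosomes stable in early cleavage and takes part in the DNA damage response of embryonic stem cells. Its control arrays read 7.54, 7.64 and 7.60 log2 units and its knockdown arrays 8.52, 8.37 and 8.55. The groups are far apart, with knockdown array 2 the lowest of its group. The difference was 0.89 ± 0.062 (SE), and it lay between 0.85 and 0.94 with any 1 array left out.

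Ooep, also called Floped, encodes the KH-domain partner of Khdc3 and Nlrp5 in the complex. It read 10.56, 10.54 and 10.69 on the control arrays and 10.89, 10.96 and 10.95 on the knockdown arrays. The groups do not overlap, and control array 3 came closest to the knockdown values. The difference was 0.34 ± 0.058 (SE), with a range of 0.31 to 0.38 when 1 array was left out. Ooep was no longer called without control array 1, where the difference was 0.32, without control array 2, where it was 0.31, or without knockdown array 2, where it was 0.32. Zp3 and Khdc3 were called in all 6 such fits.

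**Figure D2:**
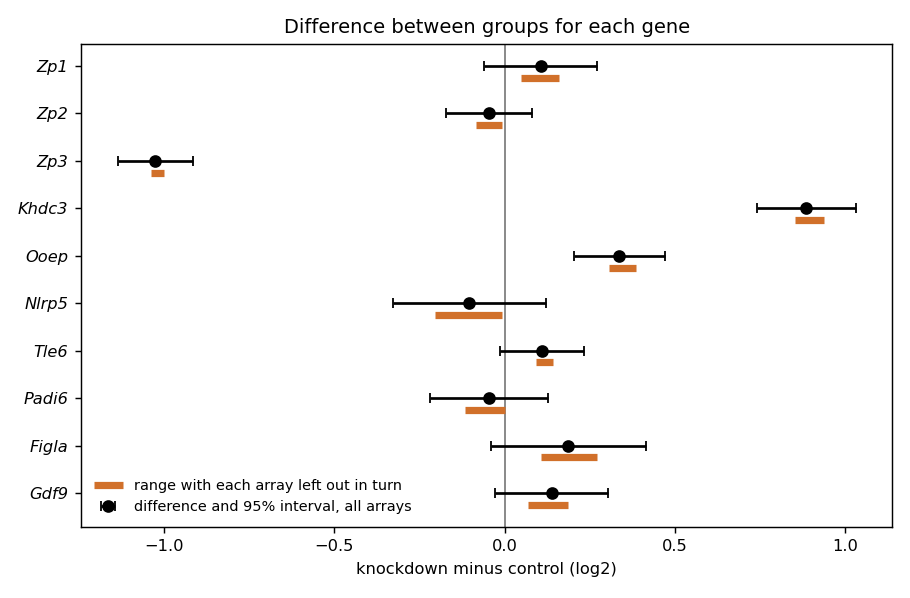
Difference between knockdown and control for each gene in log2 units, with the 95% interval of the limma fit (black) and the range of the difference when each array is left out in turn (orange bar). Zp3 lies at −1.03, Khdc3 at 0.89 and Ooep at 0.34, and the intervals of the other 7 genes include 0.

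The other genes of the maternal protein store showed small differences in either direction. Tle6, a Groucho-family member that joins the complex, read 7.07, 7.15 and 7.06 on the control arrays and 7.14, 7.24 and 7.23 on the knockdown arrays, a difference of 0.11 ± 0.053 (SE). Its lowest knockdown value lay just under the highest control value. Nlrp5, also called Mater, the NLR protein around which the complex forms, read 5.43, 5.25 and 5.03 against 5.07, 5.17 and 5.16, a difference of −0.10 ± 0.097 (SE).

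Most of the spread of Nlrp5 came from the control arrays, whose SD was 0.20 against 0.055 on the knockdown arrays. Without control array 1 its difference was −0.0069. Padi6, a relative of the enzymes that turn arginine into citrulline, read 4.40, 4.54 and 4.53 against 4.40, 4.58 and 4.35, a difference of −0.047 ± 0.075 (SE) that took the other sign without knockdown array 3. Within the complex the 2 KH-domain genes rose and Nlrp5 and Tle6 had 95% intervals from −0.33 to 0.12 and from −0.013 to 0.23. Whether Khdc3 and Ooep differ from these partners was not tested, since the contrast chose them.

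Figla and Gdf9 stand for the regulators of the oocyte programme. Figla read 5.53, 5.37 and 5.69 on the control arrays and 5.69, 5.86 and 5.60 on the knockdown arrays, which overlap, and the difference was 0.19 ± 0.098 (SE). Its pooled SD of 0.15 was larger than in 87.1% of genes. Gdf9, a secreted TGF-beta family ligand by which the oocyte directs granulosa cells, read 5.58, 5.57 and 5.48 against 5.82, 5.63 and 5.58. These values do not overlap, but only by a margin far smaller than the SD, and the difference of 0.14 ± 0.071 (SE) was not called.

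Spread within the groups was ordinary for most of the 10 genes. Their pooled SDs ran from 0.034 for Zp3 to 0.15 for Figla, where the median of all genes was 0.082. Knockdown array 3 gave the lowest knockdown value for 6 of the 10 and the highest for 1, while control array 2 gave the lowest control value for 5. Without knockdown array 3 the differences of Zp3, Khdc3 and Ooep were −1.02, 0.85 and 0.33, and all 3 were called.

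The wider oocyte programme, with relatives of the 10 genes in other tissues, was described with 11 lists, of which 122 of 137 genes were measured. Of these 122 genes, 7 rose and 3 fell in limma, 8.20%, against 5.53% of all genes, and their median difference was 0.018 against 0.00480. The probe sets of 49 of them lay under the 95th percentile of the olfactory receptors. The 10 called genes became 1 without control array 1, 2 without control array 2, 2 without control array 3 and 2 without knockdown array 2, fits in which the share of all genes called also fell, to 1.25%, 1.41%, 1.83% and 1.73%. They were 8 without knockdown array 1 and 9 without knockdown array 3, beside 3.28% and 6.53% of all genes. Only Tcl1 stayed called in all 6 fits that leave out an array. The counts of the single lists below stand beside 5.53% of all genes called in limma and 10.4% with a trended prior. The share of all genes with an unadjusted p under 0.05 was not counted.

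Among 7 genes of egg coat processing and the egg surface, limma called 0, while 1 had an unadjusted p under 0.05 and a trended prior called 0. That gene was Plac1, known from placenta and oocytes, at 0.29 ± 0.0675 (SE, adjusted p = 0.0536 in limma). Izumo1r, which encodes the egg receptor for the sperm protein Izumo1, was at 0.098 ± 0.095 (SE). A trended prior called 1 of 11 proteins that carry a zona pellucida domain in other tissues. In limma 1 rose, Eng, which encodes the TGF-beta coreceptor endoglin of blood vessels. Its control arrays read 8.51 to 8.54 and its knockdown arrays 8.78 to 8.93, a difference of 0.31 ± 0.0555 (SE, adjusted p = 0.0219 in limma), with adjusted p-values of up to 0.104 when an array was left out. Tgfbr3, the related coreceptor betaglycan, was at 0.20 ± 0.087 (SE) and not called.

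Sperm genes listed for zona binding were called for 0 of 7 in limma, with 1 at an unadjusted p under 0.05 and 0 with a trended prior. Zpbp, of the acrosome, was at 0.14 and the hyaluronidase gene Spam1 at −0.13. Of the KH-domain relatives of Khdc3 and Ooep, 0 of 2 were called in limma, with 0 at an unadjusted p under 0.05 and 0 with a trended prior. Dppa5a, a bright pluripotency marker, stood at means of 12.96 and 12.97, and Khdc1a, dim at 3.10 and 3.32, differed by 0.22 ± 0.16 (SE).

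Of 11 oocyte NLRP genes, relatives of Nlrp5 whose copies resemble each other and may share probes, 1 rose. A trended prior called 2 of the 11. Nlrp9b went from 6.01, 5.98 and 5.93 to 6.25, 6.27 and 6.39, a difference of 0.33 ± 0.056 (SE, adjusted p = 0.0186 in limma), and reached 0.0823 with an array left out. Nlrp4a, at −0.34 ± 0.092 (SE, adjusted p = 0.0859 in limma), had groups that do not overlap but was not called. Of 9 paralogs of Tle6 and Padi6, 1 rose, Tle5, a short Groucho-related protein, at 0.23 ± 0.047 (SE, adjusted p = 0.0375 in limma, up to 0.156 with an array left out), while Tle1 was at 0.11 and not called. A trended prior called 1 of these 9.

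Transcription regulators of oocytes other than Figla were called for 0 of 15 in limma, with 1 at an unadjusted p under 0.05 and 0 with a trended prior. That gene was Tcf3, which encodes an E protein and so a possible partner of Figla, at 0.12 ± 0.046 (SE). The homeobox gene Obox5 was at −0.19 ± 0.099 (SE). Of 10 genes for signals between oocyte and granulosa cells other than Gdf9, 2 rose and 1 fell, and a trended prior called 3.

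Kit, the receptor tyrosine kinase of germ cells, rose from 9.02, 9.05 and 8.92 to 9.27, 9.36 and 9.49, a difference of 0.38 ± 0.070 (SE, adjusted p = 0.0245 in limma). Its ligand gene Kitl fell from 5.53 to 5.64 on the control arrays to 5.15 to 5.31 on the knockdown arrays, a difference of −0.35 ± 0.060 (SE, adjusted p = 0.0198 in limma). In both genes the lowest and highest values of the groups were clear of each other. Bmpr2, the type II receptor through which Gdf9 and Bmp15 signal, rose by 0.25 ± 0.0555 (SE, adjusted p = 0.0428 in limma). With an array left out, Kit and Kitl each reached adjusted p-values of up to 0.0938 and Bmpr2 of up to 0.164.

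Genes of messenger RNA control and meiotic arrest were lower for 1 of 15, Patl2, a translational repressor of oocytes, at −0.27 ± 0.059 (SE, adjusted p = 0.045 in limma, up to 0.169 with an array left out). Cpeb1, which controls polyadenylation of stored messages, was at −0.29 ± 0.096 (SE) and not called. A trended prior called 1 of the 15. Of 20 other maternal-effect genes, 2 rose and 1 fell, while a trended prior called 7, beside 10.4% of all genes. Tcl1, an Akt cofactor of eggs and stem cells, fell by 0.46 ± 0.057 (SE, adjusted p = 0.00686 in limma). The ubiquitin-conjugating gene Ube2a rose by 0.33 ± 0.063 (SE, adjusted p = 0.0282 in limma) and Uchl1, a ubiquitin hydrolase, by 0.32 ± 0.056 (SE, adjusted p = 0.0215 in limma), with up to 0.129 and 0.102 when an array was left out. Among 15 further oocyte-enriched genes 0 were called in limma, with 4 at an unadjusted p under 0.05 and 1 with a trended prior, and Oas1d, an oocyte member of the oligoadenylate synthetases, came nearest at 0.49 ± 0.11 (SE, adjusted p = 0.0523 in limma). Accsl was at 0.21 ± 0.075 (SE).

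**Figure D3:**
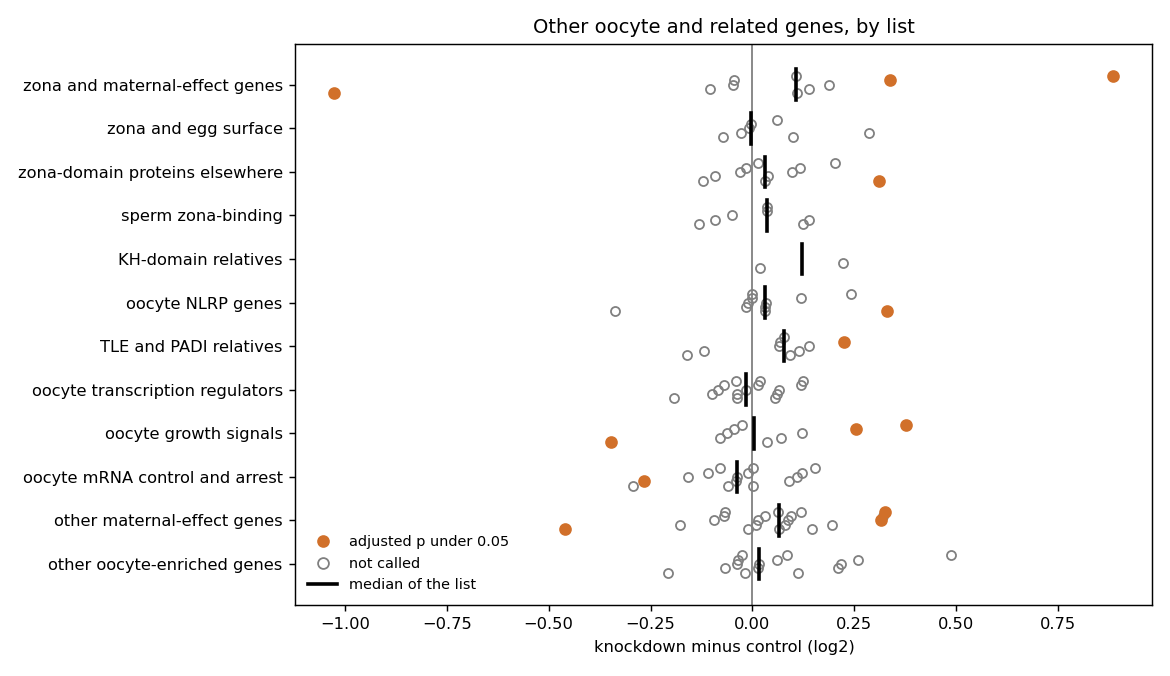
Difference between knockdown and control in log2 units for the 10 genes described here (top row) and for the measured genes of 11 other oocyte and related lists. Filled orange points passed an adjusted p under 0.05 in limma, open points did not, and the black tick is the median of the row. Zp3 and Khdc3, which were chosen for their differences, lie outside the range of these 11 lists, −0.46 to 0.49.

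Position on the chromosome was not part of the choice, and the nearest measured genes were read from the RefSeq order of GRCm38.p6. Khdc3 and Ooep both lie on chromosome 9 but are not next to each other, and Zp3 lies on chromosome 5. Of the 18 genes that stand 3 to either side of these, 0 were called in limma, beside 5.53% of all genes. A trended prior called 1, Ywhag, beside 10.4% of all genes. An unadjusted p under 0.05 in limma was reached by 3 of the 18, and the share of all genes that reached it was not counted. Their differences ran from −0.19 to 0.23. On one side of Zp3 lie Ssc4d, a scavenger receptor-like gene, at −0.19 ± 0.050 (SE, adjusted p = 0.0827 in limma) and Ywhag, a 14-3-3 protein gene, at −0.12 ± 0.047 (SE), and on the other side lies Dtx2, a Notch pathway ligase gene, at −0.071 ± 0.048 (SE).

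The 6 neighbours of Zp3 all had small negative differences, from −0.19 to −0.047, of which 0 were called. Differences were negative for 9613 of all 19937 genes, and that of Upk3b reached 0.0015 with an array left out. Whether the neighbours share a change was not tested. Around Khdc3 the nearest genes Rab27a, a vesicle GTPase gene, and Rsl24d1, a ribosome assembly gene, were at −0.024 and 0.0063. Ooep lies between Dppa5a and the helicase gene Ddx43, which was at 0.23 ± 0.067 (SE, adjusted p = 0.103 in limma) with groups that do not overlap. Omt2a and Omt2b, oocyte genes beyond Dppa5a, were dim and differed by −0.026 and 0.061.

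**Figure D4:**
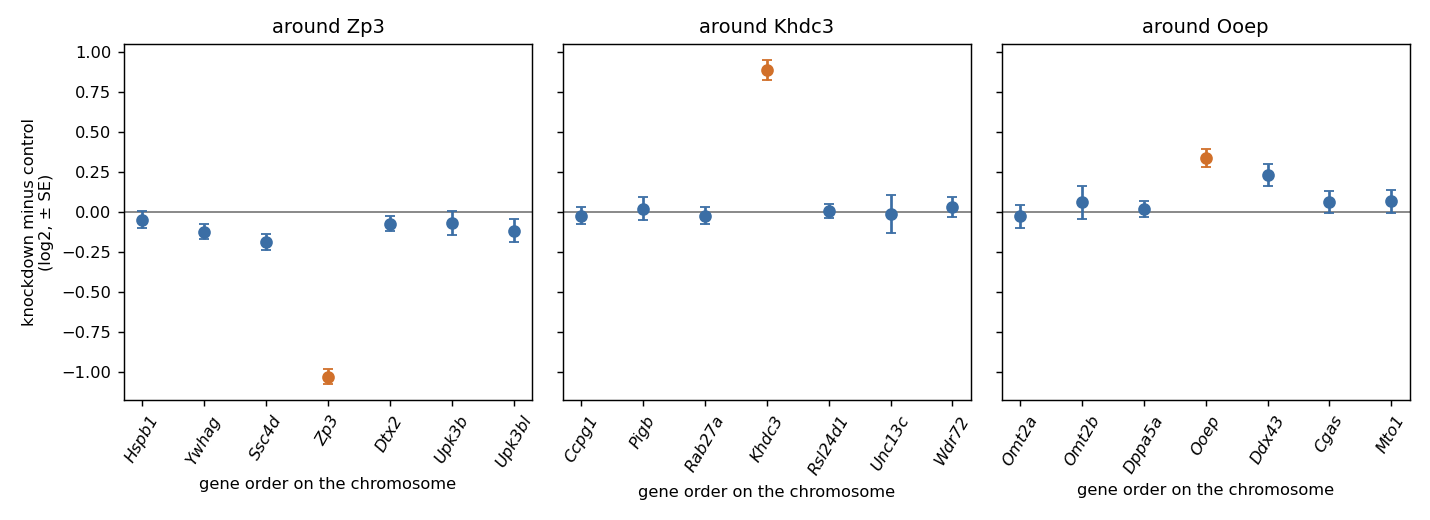
Difference between knockdown and control in log2 units, with its standard error, for Zp3, Khdc3 and Ooep (orange) and the 3 nearest measured genes on either side (blue), in order along the chromosome. The neighbours lie between −0.19 and 0.23, and 0 of the 18 were called, beside 5.53% of all genes.

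Genes whose pattern over the 6 arrays was most alike were sought by the root mean square difference between values centred on their own mean, a description that follows the contrast. Nearest to Zp3 were Tmem50b, a membrane protein gene, at 0.099 log2 units, the WAP-domain gene Wfdc2 at 0.12 and Mmd, a membrane protein gene of macrophages, at 0.13. Nearest to Khdc3 were the serine protease gene Prss42 at 0.055, Ano9, an anoctamin, at 0.065 and the Hedgehog receptor gene Ptch1 at 0.069. Nearest to Ooep were Brpf1, a scaffold of histone acetyltransferases, at 0.018, the epidermal factor gene Grhl3 at 0.024 and the receptor gene Fgfr1 at 0.030. These distances were not compared across the 3 genes.

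Markers of the cell types that such cultures could hold were measured on the same arrays. Their calls stand beside 5.53% of all genes, and beside 19.0% when only genes above the median level were fitted. A trended prior called 10.4% of all genes. Among the markers it called 6 of 10 for embryonic stem cells and 2 of 9 for germ cells. It also called 4 of 7 for 2-cell-like cells and 1 of 10 for feeder fibroblasts. The 10 embryonic stem cell markers were bright, at mean levels from 9.87 to 12.33, with 3 higher and 0 lower, and their summed linear level was 28074 to 28624 on control and 30303 to 31653 on knockdown arrays. Of these, Fgf4 rose by 0.31, Zfp42 by 0.25 and Klf2 by 0.22. Without Fgf4 the summed level of the other 9 was 26115 to 26602.5 on control and 27907 to 29004.7 on knockdown arrays. Granulosa markers, which would go with follicles, were called for 0 of 5 in limma, with 0 at an unadjusted p under 0.05 and 0 with a trended prior, and their mean levels lay between 5.12 and 6.27. Their summed level was 284 to 297 on control and 277 to 294 on knockdown arrays, with Amh at 0.12 and Foxl2 at −0.11.

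Germ cell markers were higher for 2 of 9, Mael, a piRNA pathway gene, by 0.28 and Tex101 by 0.24, and lower for 0. Differences of the 9 ran from −0.20 to 0.28, with a median of −0.044. Ddx4 and Sycp3, named after their values were seen, were both at −0.20 and not called. The summed levels of the 9 were 2312 to 2499.96 on control and 2346 to 2590.4 on knockdown arrays. With Mael left out they were 1608.5 to 1760 on control and 1498 to 1679 on knockdown arrays, and both pairs of ranges overlap. Of 13 listed markers of 2-cell-like cells, 7 were measured. Zscan4c, Zscan4d, Zscan4f and Duxf3 were among those without a probe set of their own. Of the 7, 2 rose and 1 fell, and their summed level was 297 to 327 on control and 363 to 371 on knockdown arrays. Zfp352 was at 0.43, and of the near-identical Usp17l genes, Usp17lb was at 0.37 and Usp17ld at −0.30. Gm5662, named after its value was seen, had the largest difference of the list, 0.70 ± 0.17 (SE, adjusted p = 0.0649 in limma), and was not called. Without it the summed level of the other 6 was 252 to 258 on control and 271 to 281 on knockdown arrays. Feeder fibroblast markers were lower for 1 of 10, the smooth muscle actin gene Acta2, at −0.70, and their summed level was 5042 to 5128 on control and 4686 to 4840.1 on knockdown arrays. Without Acta2 the summed level of the other 9 was 4417 to 4548 on control and 4335 to 4487 on knockdown arrays, which overlap. Most of either sum came from Fn1, at a mean of 11.94 log2 units, while the next brightest of the 9, Thy1, was at 7.07. Both were named after their values were seen. These sums therefore say little about the dimmer markers. For these 9 the differences ran from −0.17 for Pdgfra to 0.0082 for Postn, named after its value was seen, and the median of the 10 was −0.021. The calls of Fgf4, Zfp42, Klf2, Mael, Tex101, Zfp352, Usp17lb and Usp17ld were each lost in at least 1 fit that omits an array, where the adjusted p in limma reached 0.176 at most, and that of Acta2 held in all 6. The part of any of these markers in the differences of Zp3, Khdc3 and Ooep was not tested. In bulk RNA, fewer cells that carry a transcript and less of it in each cell cannot be told apart.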

How the data were processed

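RNA of mouse embryonic stem cells was measured on 6 Affymetrix arrays, 3 per group. The deposited table holds log2 expression per probe set, made by the authors with RMA and the affy package per the submitters' processing notes, whose versions the sources used here do not give. RMA corrects background, quantile normalizes and summarizes probes, which hides any change that most genes share. Precision is limited by the number of arrays, and p-values measure the spread between samples that may be technical replicates.

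Of 34760 probe sets, 21640 had 1 gene symbol in GEO's platform annotation, 1321 had several and 11799 were unnamed here. The brightest probe set stood for a gene, which left 19937 genes without an intensity filter. Group was the only term of a fit with limma 3.58.1 in R 4.3.3, with Benjamini-Hochberg adjustment over all genes and calls at an adjusted p under 0.05. In simulated data with 200 changed genes, the fit recovered 98% of 1.5-fold and 100% of 2-fold changes, and 5.71% of its calls were false. The simulated noise was independent and had the same spread on every array. It therefore could not show how the fit behaves when 1 array stands apart. Tables and plots used Python 3.11.15, pandas 2.3.3 and matplotlib 3.10.9.

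The 10 genes and all lists were chosen with earlier results of these data known. Named genes are the 10, Trim71, the called genes of each list and its 2 genes of largest moderated statistic, and the neighbours and most alike genes of Zp3, Khdc3 and Ooep. Predicted genes, small RNA genes and olfactory receptors were left out of the most alike genes. Promoters were matched by symbol to RefSeq windows of GRCm38.p6, of which the 250 bases before the start were searched. Alternatives were a replicate block, each array left out, a brightness filter, median centring, a repeated quantile normalization, a trended and robust prior, array weights, the mean of probe sets and all probe sets.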

Additional observations from a re-analysis of the deposited data

How the results depend on the processing

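Zp3 and Khdc3 were called under all 14 alternatives, which is a description, as the genes were chosen for these differences. In 5 of the 14, the block, the brightness filter, the trended prior, the mean of probe sets and all probe sets, the differences of Zp3, Khdc3 and Ooep are unchanged by construction. Ooep was not called with the replicate number as a block, with all probe sets, or without control array 1, control array 2 or knockdown array 2. Padi6 took the other sign without knockdown array 3 and with array weights (0.032), with a range of −0.12 to 0.0015 over the fits with an array left out. The 3 calls among the 10 genes became 2 to 3 with an array left out. The 10 calls in the oocyte lists became 1 with the replicate block, 1 with all probe sets, 16 with the trended prior, and 1 to 9 with an array left out. The 1103 calls over all genes became 279 with the replicate block, 1890 among genes above the median level, 2067 with the trended prior, 2172 with array weights, 400 with all probe sets, and 249 to 1302 with an array left out. Their split was 675 higher and 428 lower as deposited, 779 and 763 after a repeated quantile normalization, and 527 and 616 when each array was centred on its median. The cause was not tested. Deviations of same-numbered arrays from their group means correlated at −0.017, −0.15 and −0.24. Those of differently numbered arrays correlated at −0.23 to 0.28. With 3 arrays per group these values cannot settle whether any arrays share a batch. The block rests on the replicate number only, and no source used here says that the number pairs arrays. Dim probe sets limit Zp2, Padi6 and Nlrp5 most.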
